A study of Mus musculus with 6 samples.

Results

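The miR-34 family is a small group of microRNAs (miRNAs) made from the genes Mir34a, Mir34b and Mir34c. Its members were chosen by name, as every arm of miR-34a, miR-34b or miR-34c in the deposited miRNA tables. Of the 5 arms named, 4 entries were analysed among 685 listed miRNAs: mmu-miR-34a-5p, mmu-miR-34b-5p, mmu-miR-34b-3p and mmu-miR-34c-5p, written below without the species prefix. The opposite arm mmu-miR-34c-3p was not analysed here. The libraries came from N2a cells, a mouse neuroblastoma line, differentiated toward a neuron-like state with 10 µM retinoic acid in medium renewed daily for 96 h. The treated group then received 5 µM RSL3 for 24 h, and the control group received the matching amount of its solvent DMSO. RSL3 inhibits GPX4, the peroxidase that reduces lipid peroxides, and was used here to induce ferroptosis, an iron-dependent form of cell death. With 3 libraries in each group, the question is how miRNA levels differ after RSL3. All libraries received retinoic acid, and no library of undifferentiated cells was analysed here, so the effect of retinoic acid itself was not measured. N2a is a single tumour line, and all values are bulk values, in which fewer cells carrying a miRNA and less of it per cell cannot be told apart.

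The miR-34 genes are direct transcriptional targets of p53, the transcription factor that responds to DNA damage and other stress. Their 5p strands are the usual guide strands, which pair with messenger RNAs through the seed (bases 2 to 8) and lower genes of the cell cycle and of survival such as Cdk6, Met, Bcl2, Sirt1 and Mycn. In many tissues miR-34a is the broadly made member, prominent in brain, while miR-34b and miR-34c come from a shared transcript and are abundant in testis and in multiciliated epithelia, where the miR-449 family carries the same seed. In neuroblastoma, miR-34a is studied as a growth suppressor and has been tied to retinoid-driven differentiation.

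The sequences show why these arms form a family and how alike miR-34b and miR-34c are. Whether reads of miR-34b and miR-34c were mixed was not tested. RefSeq sequences (GRCm38.p6) held the mature form for 3 of the 4 analysed arms, printed 5′ to 3′ with the seed in capitals.
miR-34a-5p: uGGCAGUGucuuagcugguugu
miR-34b-5p: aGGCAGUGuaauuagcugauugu
miR-34b-3p: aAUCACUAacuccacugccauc
The hairpins of the shared transcript are given for comparison, with the heptamer GGCAGUG in capitals.
Mir34b hairpin: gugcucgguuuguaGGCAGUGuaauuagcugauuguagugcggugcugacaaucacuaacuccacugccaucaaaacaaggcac
Mir34c hairpin: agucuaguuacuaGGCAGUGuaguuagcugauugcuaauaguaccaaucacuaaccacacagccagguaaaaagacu
The guide strands miR-34a-5p and miR-34b-5p carry the same seed, GGCAGUG, and each of the 3 hairpins holds this heptamer at 1 place. Over the 23 bases that begin 1 base before the heptamer, the Mir34b and Mir34c hairpins are identical at 21 positions and first differ at position 11. The passenger strand miR-34b-3p has another seed, AUCACUA. Among the mature sequences of the RefSeq table, GGCAGUG is also the seed of miR-449a-5p and miR-449c-5p, which were not analysed here.

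The genes lie at 2 loci of GRCm38. Mir34a is on the plus strand at chr4:150068454-150068555, outside protein-coding genes in GENCODE M21, with its last bases overlapping the exon of the transcript Gm37795 on the same strand. The nearest protein-coding gene was Gpr157, 18810 bp away. Mir34c (chr9:51103034-51103110) and Mir34b (chr9:51103562-51103645) are on the minus strand with 451 bases between them. Both lie in an intron of the longest annotated transcript of Btg4, a gene of the BTG/Tob antiproliferative family, which is transcribed from the opposite strand.

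The family was dominated by miR-34c-5p and miR-34b-5p, while miR-34a-5p was scarce. Values are the deposited CPM, read counts that the authors divided by a library size adjusted with a scaling factor (TMM), and each miRNA molecule gives a single read, so no length correction applies. How efficiently different sequences enter a library was not measured, so differences in level between members are differences in reads. The level of mmu-miR-34c-5p was 111, 95.4 and 110.2 CPM in DMSO libraries 1 to 3 and 119, 158 and 114 CPM in RSL3 libraries 1 to 3. On this scale all treated values exceeded all control values, by a narrow margin that depended on the scaling factor. Its partner from the same transcript, mmu-miR-34b-5p, stood at 37.6, 35.7 and 47.8 CPM in the DMSO group and at 52.1, 57.4 and 36.5 CPM in the RSL3 group. By mean level miR-34c-5p was 215th and miR-34b-5p 286th of the 685 listed miRNAs.

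Against these, mmu-miR-34a-5p was measured at 3.76, 2.66 and 4.13 CPM with DMSO and at 2.29, 5.65 and 3.41 CPM with RSL3, 514th of 685. These values rest on 9 to 24 reads per library, and in RSL3 library 1 the 95% counting interval ran from 1.05 to 4.34 CPM. The passenger mmu-miR-34b-3p was lower still, at 0.627, 2.44 and 0.984 CPM with DMSO and 1.27, 2.82 and 1.80 CPM with RSL3, from 4 to 11 reads each. Its level in DMSO library 1 was close to the 0.470 CPM that 3 reads, the limit a count of 0 allows, are worth there. Counting intervals are exact Poisson intervals and cover counting error only.

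**Figure D1:**
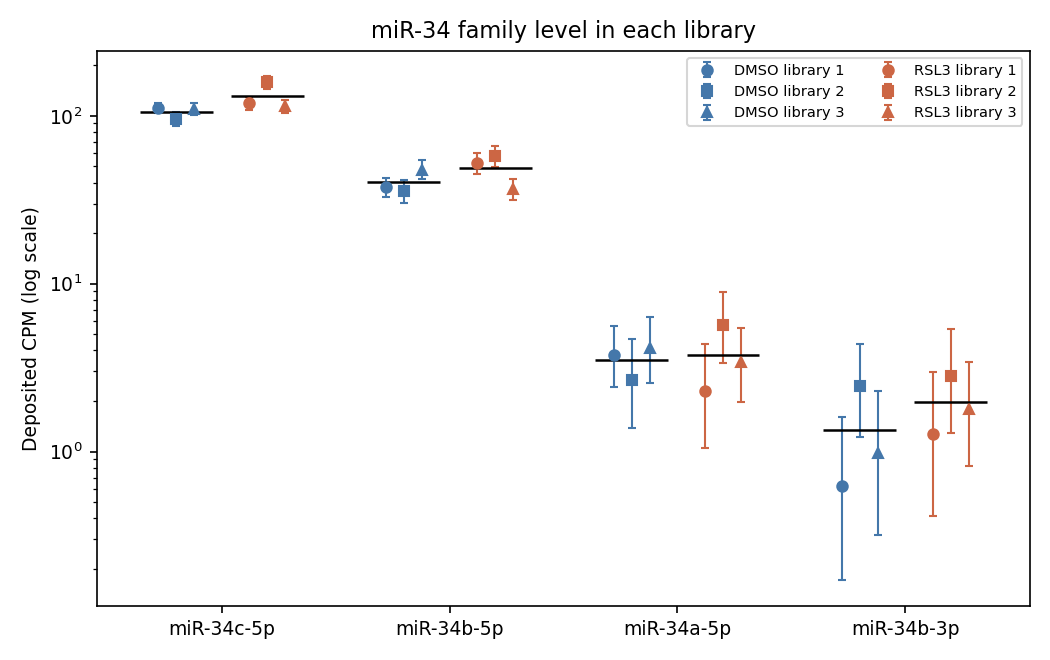
Deposited CPM (log axis) of the 4 analysed arms in each of the 3 DMSO (blue) and 3 RSL3 (orange) libraries; bars are 95% Poisson intervals of the reads and black lines the group means. miR-34c-5p and miR-34b-5p lie above miR-34a-5p and miR-34b-3p in every library, and RSL3 library 2 holds the highest point of each arm.

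In every library the order was miR-34c-5p, miR-34b-5p, miR-34a-5p, miR-34b-3p. Reads of miR-34c-5p exceeded those of miR-34b-5p by 2.28 to 3.12 times and those of miR-34a-5p by 26.7 to 52.0 times. The lower neighbours were closer: miR-34a-5p and miR-34b-3p did not overlap among DMSO libraries but did among RSL3 libraries, where the range of miR-34a-5p was 2.29 to 5.65 CPM and that of miR-34b-3p 1.27 to 2.82 CPM.

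The 5p arms were summed because they share the heptamer, and the sum was 153, 134 and 162 CPM with DMSO and 173, 221 and 154 CPM with RSL3. The groups overlapped. Within this sum miR-34c-5p took 70.7% ± 2.52 in DMSO and 71.4% ± 2.70 in RSL3 libraries (SD, n = 3 per group), miR-34b-5p took 26.9% ± 2.43 and 26.6% ± 3.20, and miR-34a-5p took 2.33% ± 0.301 and 2.03% ± 0.638. For each of these shares the difference between the group means was smaller than the SD within either group, except for miR-34a-5p, where it lay between the 2 SDs.

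None of the 4 arms passed the test for a change after RSL3, and each fitted difference was positive. The test was limma on log2(CPM + 1) over the 666 miRNAs that reached 1 CPM in at least 3 libraries, with Benjamini-Hochberg adjustment over all of them, and all 4 arms were among these. In limma 0 of 4 passed, where 0.751% of all tested miRNAs did, and 0 had an unadjusted p under 0.05, where 17.3% of all tested miRNAs did. The read-count tests edgeR and DESeq2 also called 0 of the 4, where they called 0.901% and 6.01% of all tested miRNAs. An unadjusted p under 0.05 was reached by 0 of the 4 in both, against 17.0% of all miRNAs in edgeR and 14.3% in DESeq2. DESeq2 gave no adjusted p to 284 of the 666 tested miRNAs, among them miR-34a-5p and miR-34b-3p. These could not be called, yet they are counted in the base of the 6.01%. The median log2 fold change of the 4 arms was 0.27, against 0.0013 over all tested miRNAs, of which 50.2% were above 0. The 4 arms are not independent values: those of miR-34b and miR-34c share a transcript, and all 4 were highest in RSL3 library 2.

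The arm nearest the threshold was miR-34c-5p, whose mean was 106 ± 8.85 CPM with DMSO and 130 ± 24.3 CPM with RSL3 (SD, n = 3 per group). Its 3 RSL3 libraries lay above its 3 DMSO libraries, but narrowly, with 114 CPM as the lowest RSL3 value and 111 CPM as the highest DMSO value. The 95% counting intervals of these libraries overlapped, at 105 to 123 CPM in RSL3 library 3 and 103 to 120 CPM in DMSO library 1. As plain shares of listed reads their order was reversed, with 567 of 4989380 in RSL3 library 3 and 710 of 6058006 in DMSO library 1. On that scale the groups overlapped. In deposited CPM only miR-34c-5p of the 4 arms had groups that did not overlap, and 12.3% of all tested miRNAs were likewise higher in every RSL3 library. The log2 fold change was 0.29 ± 0.15 (SE), a 1.22-fold difference with a 95% interval from 0.975 to 1.53, and the limma adjusted p was 0.33 (unadjusted 0.077). The merged level of miR-34b-5p and miR-34c-5p had a log2 fold change of 0.28 ± 0.15 (SE, limma adjusted p = 0.34). This sum is unchanged by reads assigned to the wrong entry of the pair, but not by reads dropped or counted in both.

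For miR-34b-5p the means were 40.4 ± 6.51 CPM with DMSO and 48.7 ± 10.9 CPM with RSL3 (SD, n = 3 per group). RSL3 library 3, at 36.5 CPM, fell below 2 of the 3 DMSO libraries. The fold difference of miR-34b-5p was 1.19 with a 95% interval from 0.893 to 1.58 (limma adjusted p = 0.53).

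The means of miR-34a-5p were 3.52 ± 0.764 and 3.78 ± 1.71 CPM (SD, n = 3 per group), and its RSL3 libraries held both the lowest and the highest of the 6 values. Its log2 fold change was 0.04 ± 0.29 (SE), with an interval from 0.664-fold to 1.58-fold and a limma adjusted p of 0.97. This interval spans changes of more than 1.5-fold in either direction, so the data bound the response of miR-34a-5p only loosely.

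For miR-34b-3p the means were 1.35 ± 0.961 and 1.97 ± 0.789 CPM (SD, n = 3 per group), and the groups overlapped. The fold difference of CPM + 1 was 1.30, with a 95% interval from 0.793 to 2.13 (limma adjusted p = 0.58). At this level the added 1 shrinks both the fold and its interval. The log2 fold change was 0.38 in limma and 0.57 in edgeR, which uses reads.

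**Figure D2:**
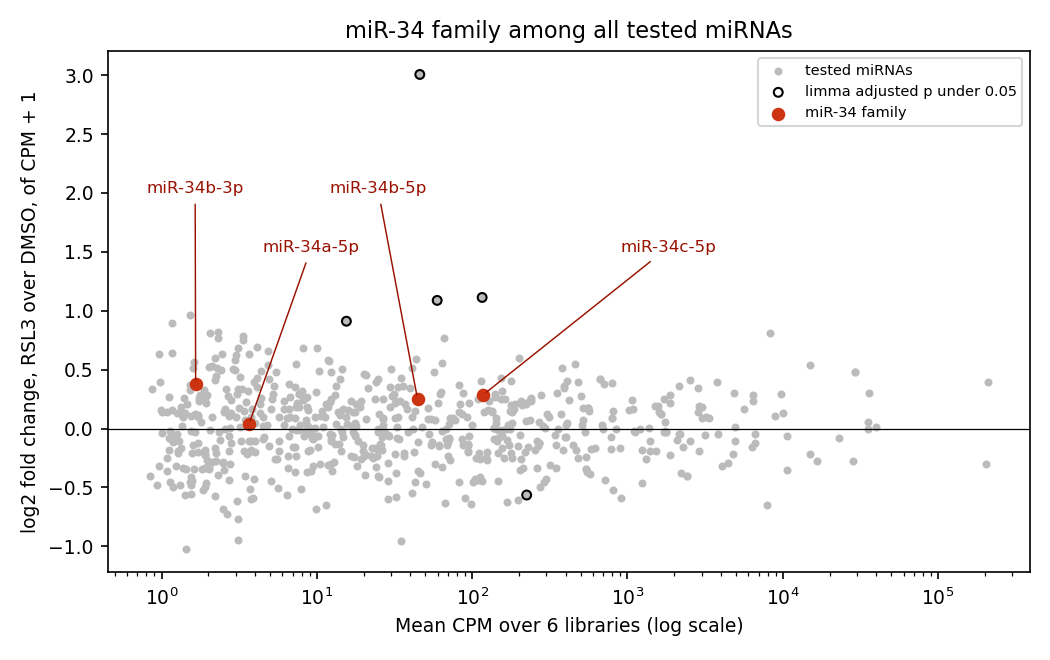
log2 fold change of CPM + 1 (RSL3 over DMSO) against mean CPM over the 6 libraries (log axis) for the 666 tested miRNAs, with the miR-34 family in red and the 5 miRNAs called by limma ringed. The family's values, from 0.04 to 0.38, lie inside the cloud of uncalled miRNAs of similar level.

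The spread between replicates of the abundant arms was wider than counting alone would give. For miR-34c-5p the SD was 1.97 times the counting SD in DMSO and 4.15 times in RSL3 libraries, and for miR-34b-5p 2.34 and 3.03 times. Among the scarce arms it was 0.937 and 1.70 times for miR-34a-5p, and 1.82 and 1.09 times for miR-34b-3p. RSL3 library 2 held the highest value of each of the 4 arms, and 26.1% of all tested miRNAs were highest there. That library had the fewest miRNA reads (3406276) and the lowest scaling factor (0.936), and the part of these in the result was not tested. As a plain share of listed signal, which does not depend on the scaling factor, the 5p sum was also highest in RSL3 library 2, at 0.0207% against 0.0140% to 0.0174% in the others. Without RSL3 library 2 the log2 fold change of miR-34c-5p was 0.14 (limma adjusted p = 0.68), that of miR-34b-5p 0.12 and that of miR-34b-3p 0.18, and miR-34a-5p had a negative value of -0.23. Leaving out some other libraries moved arms upward. Without RSL3 library 3 the log2 fold change of miR-34b-5p was 0.44 and its groups no longer overlapped (limma unadjusted p = 0.041, adjusted p = 0.40). That of miR-34c-5p was then 0.38 (limma unadjusted p = 0.049, adjusted p = 0.43), with 0.40 for miR-34b-3p and 0.06 for miR-34a-5p. Without RSL3 library 1 miR-34c-5p had 0.34, miR-34a-5p 0.28 and miR-34b-3p 0.55, while miR-34b-5p fell to 0.19. The log2 fold change of miR-34b-3p was 0.69 without DMSO library 2, also with no overlap (limma unadjusted p = 0.060, adjusted p = 0.41), and 0.15 without DMSO library 1.

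**Figure D3:**
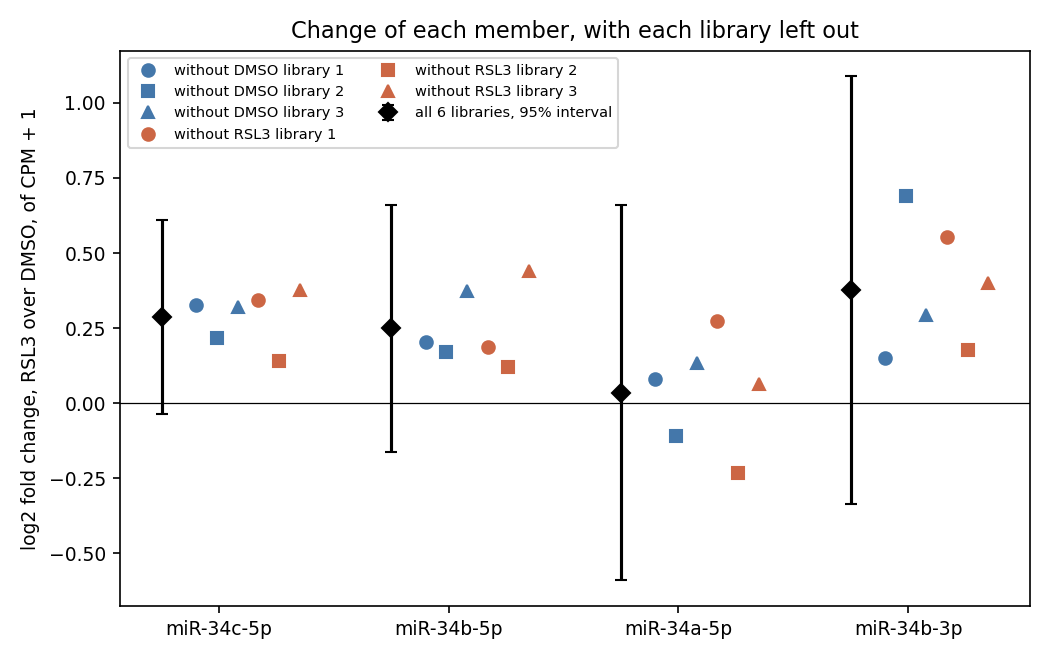
log2 fold change of CPM + 1 for each arm with all 6 libraries (black, with 95% interval) and with each library left out in turn (coloured by the group of the library left out). miR-34c-5p, miR-34b-5p and miR-34b-3p stay above 0 throughout, miR-34a-5p falls below 0 without DMSO library 2 or RSL3 library 2, and every interval includes 0.

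The balance of the arms of miR-34b favoured the 5p arm in all libraries. This is a ratio of reads, in which the choice of strand cannot be told apart from how well each arm enters a library. Reads of miR-34b-5p exceeded those of miR-34b-3p by 60.0, 14.6 and 48.6 times in DMSO and by 41.0, 20.3 and 20.2 times in RSL3 libraries. The groups overlapped. The log2 ratio of CPM + 1 was 4.20 ± 0.68 in DMSO and 4.07 ± 0.42 in RSL3 libraries (SD, n = 3 per group), a difference of -0.13 ± 0.36 (SE, limma adjusted p = 0.89 over 182 precursors with both arms past the filter). In that test 1.65% of the precursors were called. No arm ratio was computed for miR-34a and miR-34c, of which a single arm each was analysed.

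The profile of a member over the 6 libraries was compared with those of 415 other miRNAs of at least 10 CPM, by the root-mean-square distance between log2(CPM + 1) values centred on their own means. Nearest to miR-34c-5p were miR-181a-1-3p (0.066 log2 units), the neuronal miR-124-3p (0.081) and miR-486a-5p (0.093), against a median of 0.28 over the candidates. The nearest of many candidates fall below their median by selection, so for them the medians only give a scale. The means of miR-124-3p were 148 ± 15.2 CPM with DMSO and 179 ± 36.9 CPM with RSL3 (SD, n = 3 per group), with a limma adjusted p of 0.40. Nearest to miR-34b-5p were miR-486b-5p (0.109), miR-181a-1-3p (0.115) and miR-219a-1-3p (0.118). The distance between miR-34b-5p and miR-34c-5p themselves was 0.164, below the candidates' median of 0.32 for miR-34b-5p.

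Nearest to miR-34a-5p were miR-451a (0.089), a miRNA of red blood cells, and the imprinted miR-410-3p (0.104) and miR-434-3p (0.118), against a candidates' median of 0.38. Its relatives miR-34c-5p and miR-34b-5p lay at 0.24 and 0.33, also below that median, and miR-34b-3p lay at 0.50, above it. For miR-34b-3p the nearest were miR-101c, miR-101b-3p and miR-101a-3p, at 0.312 to 0.325, against a candidates' median of 0.48. Its distance to miR-34b-5p, the other arm of its hairpin, was 0.47, above the candidates' median of 0.32 for miR-34b-5p. To miR-34c-5p it was 0.41, above the candidates' median of 0.28 for miR-34c-5p. Both distances lay below the median of 0.48 for miR-34b-3p. The profiles of miR-34a-5p and miR-34b-3p rest on 9 to 24 and on 4 to 11 reads per library. Counting error was not set against these distances, so which miRNAs rank nearest to these arms is uncertain.

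**Figure D4:**
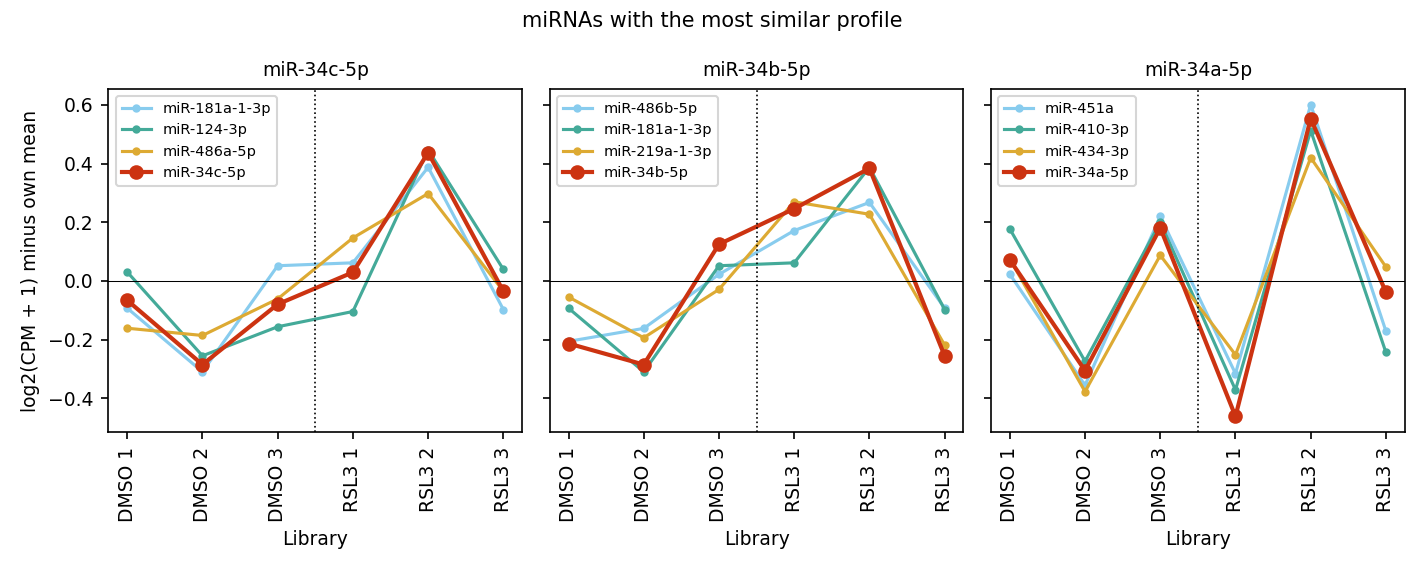
log2(CPM + 1) minus its own mean over the 6 libraries for miR-34c-5p, miR-34b-5p and miR-34a-5p (red) and the 3 miRNAs nearest to each; lines join libraries only to show which points belong together. All 3 members peak in RSL3 library 2, and miR-34a-5p has its lowest value in RSL3 library 1.

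Among other miRNAs reported to respond to p53, miR-215-5p rose and the rest did not pass in limma. From a list of 15, 13 were tested: 1 was higher in limma and 0 were lower, against 0.751% called over all tested miRNAs. Before adjustment 2 had a p under 0.05 on the higher side and 3 on the lower side, against 17.3% of all tested miRNAs in either direction. edgeR called 1 of the 13, against 0.901% of all tested miRNAs. DESeq2, which gave no adjusted p to miR-200c-3p, called 2 (miR-215-5p, higher, and miR-145a-5p, lower), against 6.01% of all tested miRNAs. The base of that share includes the 284 miRNAs without an adjusted p in DESeq2. The list had 7 positive and 6 negative log2 fold changes with a median of 0.03, and its groups did not overlap in 5 of 13, against 24.3% of all tested miRNAs. The rise of miR-215-5p, which targets cell-cycle genes, was from 10.5 ± 0.97 to 20.5 ± 2.04 CPM (limma adjusted p = 0.038), a level between those of miR-34a-5p and miR-34b-5p. Whether this call held in the alternative limma runs, some of which called 1 miRNA in all, was not examined. The most abundant of the list, miR-143-3p, miR-192-5p, miR-29a-3p and miR-16-5p, had log2 fold changes of -0.0011, 0.09, -0.22 and 0.15, with limma adjusted p-values of 0.32 or more. By mean level 10 of the 13 listed were above miR-34c-5p and 12 above miR-34a-5p.

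**Figure D5:**
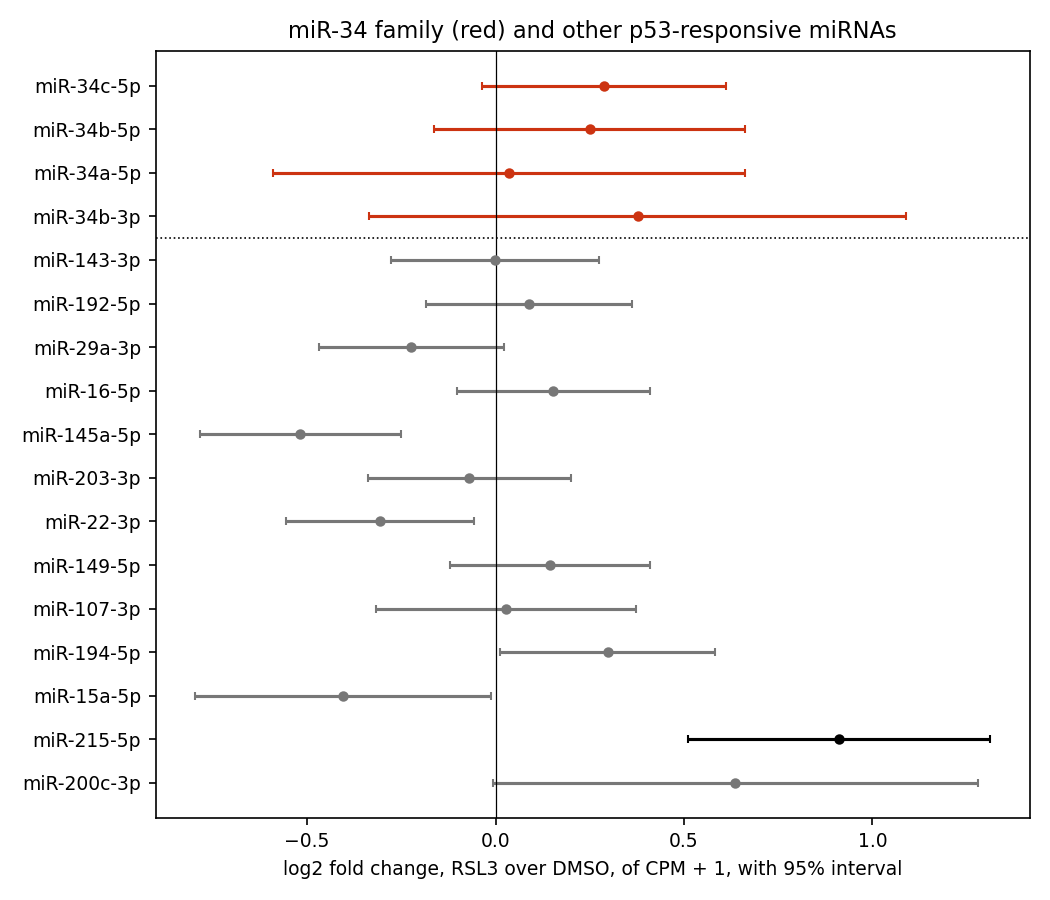
log2 fold change of CPM + 1 (RSL3 over DMSO) with 95% intervals for the 4 miR-34 arms (red) and 13 other p53-responsive miRNAs ordered by level (highest at the top). miR-215-5p (black) is the only one past the limma threshold, and the miR-34 intervals all include 0.

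Of 18 miRNAs tied to retinoid differentiation, 17 were tested and 0 were called by limma, edgeR or DESeq2. These tests called 0.751%, 0.901% and 6.01% of all tested miRNAs, including the 284 to which DESeq2 gave no adjusted p. Before adjustment limma gave a p under 0.05 to 3 on the higher side and 2 on the lower side, against 17.3% of all tested miRNAs in either direction. Their log2 fold changes were positive in 11 and negative in 6, with a median of 0.05. The most abundant were miR-27b-3p (log2 fold change 0.05), let-7c-5p (-0.35), miR-99a-5p (0.01) and miR-9-5p (0.39). All 17 had a higher mean level than miR-34a-5p, and 14 had a higher one than miR-34c-5p.

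Markers of cell types were read beside these levels. Of 6 neuronal miRNAs 6 were listed, with a summed level of 5349 to 7304 CPM with DMSO and 6046 to 8856 CPM with RSL3, and 5 of them had a higher mean than miR-34c-5p. Their log2 fold changes were positive in 5 and negative in 1 (miR-128-3p, -0.10). The X-linked miRNAs typical of male germ cells, which like miR-34b and miR-34c are known from testis, were listed for 6 of 6 and summed to 248934 to 286079 CPM with DMSO and 264926 to 389178 CPM with RSL3. Most of this sum was miR-881-3p (mean 209293 CPM over all libraries), and log2 fold changes were positive in 4 and negative in 2. The 3 miR-449 markers of multiciliated cells were not analysed here. Of 6 epithelial markers 4 were listed, with 398 to 462 and 362 to 450 CPM in DMSO and RSL3 libraries, nearly all of it miR-203-3p. Of 4 blood markers 2 were listed, with 61.9 to 89.7 and 64.0 to 121 CPM, led by miR-451a, the miRNA nearest to miR-34a-5p in profile, and their part in the miR-34a-5p values was not tested. In limma and edgeR 0 of these markers passed, against 0.751% and 0.901% of all tested miRNAs. DESeq2 also called 0 but gave no adjusted p to miR-200a-3p, miR-200b-3p, miR-200c-3p and miR-150-5p. In limma 1 neuronal (miR-9-5p) and 1 blood marker (miR-150-5p) were higher at an unadjusted p under 0.05, where 17.3% of all tested miRNAs were called in either direction. For miR-9-5p and for miR-150-5p the DMSO and RSL3 values overlapped.

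Depth was 4306460 to 6058006 recovered miRNA reads per DMSO library and 3406276 to 4989380 per RSL3 library. Whether replicates were separate cultures is not in the labels, and the spread behind the p-values is that of these libraries, possibly technical only.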

How the data were processed

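Per the labels, total RNA was ligated to adapters at both ends, and cDNA of 15 to 35 nt RNAs was sequenced for 50 cycles. The submitters' processing notes name cutadapt, Bowtie, edgeR and GRCm38; versions, settings and the handling of multiply matching reads: not given in the sources used here. Per the file headers, 1 library fills each table. The deposited signal, named CPM by the authors, summed to 949375 to 1068890 per library. Dividing by the value of 1 read recovered whole reads for 100% of values (within 0.01), and the divisor equalled total reads times an edgeR TMM factor. A plain CPM table had been assumed in the planned design.

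R 4.3.3 with limma 3.58.1 tested log2(CPM + 1) with a variance trend, two-sided, at an adjusted p of 0.05, for miRNAs at 1 CPM in 3 libraries or more. Fold changes on this scale understate changes of low miRNAs. Arm ratios were fitted over all precursors. As alternatives, recovered reads were tested with edgeR 4.0.16, which called 6 miRNAs, and DESeq2 1.42.0, which called 40. The members and lists were chosen with earlier results of these data known. Named were all members, the 3 miRNAs nearest each in profile, and per list the called and 4 most abundant members; miR-145a-5p was named after its values were seen.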

Additional observations from a re-analysis of the deposited data

How the results depend on the processing

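Of the 4 arms 0 passed under any alternative run, and the log2 fold changes of miR-34c-5p, miR-34b-5p and miR-34b-3p stayed positive in all of them. Leaving out each library in turn moved miR-34a-5p (0.04 as reported) between -0.23 and 0.28, the arm ratio of miR-34b (-0.13 as reported) between -0.52 and 0.081, and the count of calls over all miRNAs (5 as reported) between 1 and 19. Quantile normalization gave miR-34a-5p -0.020, and rescaling without the 5 most abundant miRNAs gave it -0.0045. For miR-34c-5p quantile normalization gave 0.33 (limma unadjusted p = 0.035, adjusted p = 0.25). A pseudocount of 5 gave the arm ratio 0.092. The fitted value of miR-34b-3p was 0.38 in limma and 0.57 in edgeR. With a 10 CPM filter miR-34a-5p, miR-34b-3p and the arm ratio were not tested. The count of calls was 16 after that rescaling, 40 in DESeq2 and 1 with no variance trend, and the cause was not tested. With the replicate number as a block it was 1, 0 of the 4 arms passed, and the arm ratio was -0.13. Deviations of same-numbered libraries correlated at -0.35 to -0.19, and no library correlated best with its own number, so they were not treated as pairs. Depth limits miR-34a-5p and miR-34b-3p most, with 4 to 24 reads per library.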
